A study of Glycine max with 10 samples.

Results

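The 7 genes described here are the soybean maturity genes E1 (Glyma.06G207800), E1La (Glyma.04G156400), E1Lb (Glyma.04G143300), E2 (Glyma.10G221500), E3 (Glyma.19G224200), E4 (Glyma.20G090000) and J (Glyma.04G050200). They were chosen by identifier and not by their values, though with earlier results of these data known. All 7 were found among the 55983 genes of the count table. RNA-seq was run on leaves of soybean (*Glycine max*) to compare induced susceptibility to the soybean aphid, in which a first aphid population on a plant makes it a better host for the next. The resistant cultivar was LD12-15813Ra, which carries the aphid resistance gene *Rag1*, and the susceptible cultivar was LD12-15838R. Plants with the inducer received 50 biotype 2 aphids (virulent on *Rag1*) and 15 biotype 1 aphids (avirulent) and make up 4 libraries, a day 11 and a day 1 library of each cultivar. Plants with 15 biotype 1 aphids alone make up 2 libraries, 1 per cultivar, both of day 11. Control plants without aphids make up the other 4 libraries, with both days for each cultivar. Every library is a pool of 3 replicates and stands alone for its condition, so a difference between 2 conditions has no replicate check. The sources used here do not give plant age, day length or the hour of sampling.

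The maturity genes set how long a soybean plant waits before it flowers, mainly by reading day length in the leaf. E3 (PHYA3) and E4 (PHYA2) encode phytochrome A light receptors, which keep E1 active in long days. E1 encodes a legume protein with a B3-like domain that represses the florigen genes, and E1La and E1Lb are close copies of it. E2 is a soybean GIGANTEA, a protein of the circadian clock that delays flowering in soybean, and J is a soybean ELF3, a member of the evening complex of the clock that represses E1. RNA of clock genes cycles over the day. The names come from the rule by which the genes were chosen. The RefSeq gene table (assembly Glycine_max_v4.0) lists the symbols E1 on chromosome 6, E1LA, E1LB and ELF3A on chromosome 4, E2 on 10, PHYA3 on 19 and E4 on 20, which are the chromosomes in the 7 identifiers, but it pairs 0 of the identifiers with a symbol.

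The total of estimated counts per library lay between 23394065 and 25665558. Levels are given in CPM, counts scaled to library size with edgeR's TMM factors, and intervals are exact 95% Poisson intervals of the count, which cover counting error only. The TMM factors lay between 0.772 in the resistant control library of day 1 and 1.15 in the resistant inducer library of day 1, so values that rest on these libraries move with the scaling. The libraries also did not fall out by labelled cultivar. Of 96 genes whose libraries were parted by a gap of at least 8-fold, 0 were parted by labelled cultivar, 0 by day and 0 by control against infested. In 59 of them the susceptible libraries of day 1 and the resistant libraries of day 11 lay on 1 side and the susceptible libraries of day 11 and the resistant libraries of day 1 on the other, and in 22 others the resistant control library of day 1 alone changed sides in that pattern. The paper reports that its samples clustered by sampling day over its most variable genes, which is a wider set of genes and another measure. Cultivar names below are those of the labels. An exchange of cultivar labels at 1 of the days cannot be told apart here from a difference between days that depends on cultivar, and it would change what each cultivar value, each day value within a cultivar and the day by cultivar term mean.

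E1 and both of its copies were at or near the limit of detection in every library. A gene was retained for testing when it had over 0.5 CPM in at least 1 library, as 37468 genes did (E2, E3, E4 and J among them). E1, E1La and E1Lb did not, so the tests below are of 4 of the 7 members. In an edgeR fit without this filter the day by cultivar term was -3.46 (log2, SE 3.22, adjusted p = 0.612) for E1, -6.68 (SE 2.31, unadjusted p = 0.0268, adjusted p = 0.191) for E1La and -3.48 (SE 1.83, adjusted p = 0.333) for E1Lb. With so few counts these fitted values depend on how counts of 0 are handled, and none passed the threshold of 0.05. E1 had 1 count in the resistant library with biotype 1 alone, the resistant control of day 1, the susceptible library with biotype 1 alone and the susceptible control of day 11, and 0 counts in the other 6 libraries. This makes 4 counts in all, and the highest upper bound of any library was 0.293 CPM. No library therefore reached 3 counts of E1. This is the limit used here for a count of 0 (one-sided), which corresponded to between 0.104 and 0.158 CPM, while the upper end of the 2-sided interval of a count of 0 is 3.69 counts.

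E1La had 0 counts in each of the 3 resistant libraries of day 11. In the resistant libraries of day 1 it had 1 count with the inducer and 3 in the control. In the susceptible libraries of day 11 it had 3.448 with the inducer, 0 with biotype 1 alone and 6 in the control, and at day 1 it had 0 with the inducer and 1 in the control. Only 3 libraries thus reached the limit of 3 counts for this copy.

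E1Lb had 1, 1 and 2 counts in the resistant libraries of day 11 with the inducer, with biotype 1 alone and in the control. In the resistant libraries of day 1 it had 4 counts with the inducer and 3 in the control. In the susceptible libraries of day 11 it had 7.552, 4 and 1 counts in the same order of treatments, and at day 1 it had 2 with the inducer and 0 in the control. The limit was reached in 4 libraries, none of them a resistant library of day 11 or a susceptible library of day 1.

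In the susceptible inducer library of day 11 the counts of E1La and E1Lb were fractional, 3.448 and 7.552, and summed to 11, a whole number. Their separate counts are uncertain, since reads shared by near-identical copies are divided in the estimate, and the sum of all 3 genes does not depend on the division. That sum was 1, 2 and 2 counts in the resistant libraries of day 11 with the inducer, with biotype 1 alone and in the control, and 2 with the inducer and 1 in the control in the susceptible libraries of day 1. It was 5 with the inducer and 7 in the control in the resistant libraries of day 1, and 11, 5 and 8 in the susceptible libraries of day 11. The first 5 libraries held 8 counts in total and the other 5 held 36, and no library of the first 5 reached the limit of 3. This sum was formed after its values were seen and was not tested, and no share of all genes was worked out for such a sum. None of the 3 genes alone parted the libraries in this way. The per-gene counts are shown in the plot of the E1 family.

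**Figure D1:**
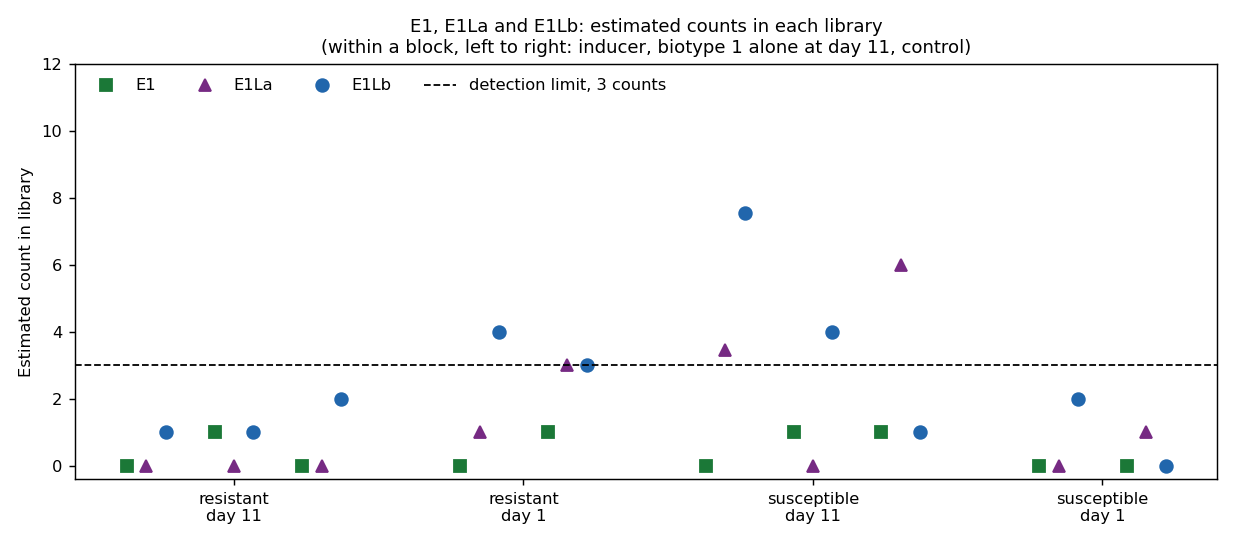
Estimated counts of E1 (squares), E1La (triangles) and E1Lb (circles) in each of the 10 libraries, in blocks of labelled cultivar and day. E1 stayed at 0 or 1 count in every library, and the points at or above the dashed limit of 3 counts all lie in the resistant day 1 and susceptible day 11 blocks. Other points of these blocks lie below the limit. No gene alone parted the libraries in this way, and no share of all genes was worked out for it.

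E2, the GIGANTEA of the clock, was detected in all 10 libraries, with between 2479 and 9636 estimated counts. It was high in the susceptible libraries of day 11 and in the resistant inducer library of day 1, and low in the other 6. It had 160.3 CPM (interval 156 to 165) with the inducer, 179 (174 to 184) with biotype 1 alone and 153 (149 to 158) in the control in the resistant libraries of day 11. In the susceptible libraries of day 11 it had 265 CPM (258 to 271) with the inducer, 364 (357 to 371) with biotype 1 alone and 271 (264 to 278) in the control. At day 1 it had 247 CPM (241 to 253) with the inducer and 131 (125 to 136) in the control of the resistant cultivar. In the susceptible cultivar at day 1 it had 155 CPM (150.1 to 160.3) with the inducer and 179 (174 to 185) in the control. The largest value was 2.79 times the smallest, and 32.7% of the retained genes had at least as large a range on the log2(CPM + 0.5) scale.

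At day 11 the resistant libraries averaged 164 ± 13.4 CPM of E2, against 299.9 ± 55.4 CPM in the susceptible libraries (SD, n = 3 each, treatments pooled), and the groups did not overlap. This was so for 40.9% of the retained genes, and for E2 and J among the members (E2 and E4 with plain library totals). In edgeR's quasi-likelihood test over all 10 libraries, with a day by cultivar term, the difference was -0.86 (log2, SE 0.30, unadjusted p = 0.0242, adjusted p = 0.143). It did not pass the threshold of 0.05, which 0.347% of all genes did in this comparison. DESeq2's Wald test gave -0.85 (SE 0.28, adjusted p = 0.0265) and called 5365 of the 37468 genes. Without the resistant control library of day 1, edgeR gave -0.85 with an adjusted p of 0.0456, and 15.5% of genes were called. Without the resistant inducer library of day 1 edgeR gave -0.83 with an adjusted p of 0.0485, and 15.7% of genes were called.

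At day 1 the resistant libraries had 247 and 131 CPM of E2, against 155 and 179 CPM in the susceptible libraries, so the values of both cultivars overlapped. The difference was 0.14 (log2, SE 0.37, edgeR adjusted p = 0.989), and 0 of the 4 members and 0.133% of all genes were called between cultivars at day 1. In that comparison J was the only member whose groups did not overlap, as for 22.7% of genes, and with plain library totals E4 was instead. The difference of E2 was 0.59 without the resistant control and -0.38 without the resistant inducer library of day 1. Day 11 against day 1 was -0.28 (SE 0.35, adjusted p = 0.888) in the resistant cultivar and 0.72 (SE 0.36, adjusted p = 0.36) in the susceptible cultivar, where 265 to 364 CPM at day 11 stood against 155 to 179 CPM at day 1. The resistant value was -0.72 without the control and 0.26 without the inducer library of day 1, so its sign rests on single libraries. Groups that do not overlap were found in the susceptible comparison for 43.2% of genes, and edgeR called 0.206% of genes between days in the resistant and 0.125% in the susceptible cultivar. The day by cultivar term, the day difference in the resistant cultivar minus that in the susceptible cultivar, was -1.0 (SE 0.48, unadjusted p = 0.0739, adjusted p = 0.256), and edgeR called 0.801% of all genes. Without the resistant control library of day 1 the term was -1.45 (SE 0.40, adjusted p = 0.0463), in a fit in which 21.7% of genes were called. Without the resistant inducer library of day 1 it was -0.46 (SE 0.40, adjusted p = 0.647). The size and the call of this term for E2 thus rest on the resistant libraries of day 1.

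J, the ELF3 of the evening complex, was also detected in all 10 libraries, at between 47 and 161 estimated counts. It had 2.94 CPM (interval 2.35 to 3.63) with the inducer, 2.91 (2.31 to 3.63) with biotype 1 alone and 1.89 (1.39 to 2.51) in the control in the resistant libraries of day 11. In the susceptible libraries of day 11 it had 3.25 CPM (2.55 to 4.10) with the inducer, 4.42 (3.65 to 5.29) with biotype 1 alone and 7.42 (6.32 to 8.66) in the control. At day 1 it had 4.67 CPM (3.90 to 5.55) with the inducer and 3.0 (2.27 to 3.89) in the control of the resistant cultivar, and 2.84 (2.19 to 3.62) and 2.76 (2.14 to 3.50) in the susceptible cultivar. The highest library, the susceptible control of day 11, had 3.93 times the value of the lowest, the resistant control of the same day. On the log2(CPM + 0.5) scale the range was 1.73, and 23.5% of the retained genes had at least as large a range.

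J lay at 1.89 to 2.94 CPM in the susceptible day 1 and resistant day 11 libraries. In the susceptible day 11 and resistant day 1 libraries it lay at 3.0 to 7.42 CPM. The gap was within counting error. The nearest libraries were the resistant inducer of day 11 (interval 2.35 to 3.63 CPM) and the resistant control of day 1 (2.27 to 3.89 CPM). Groups that do not overlap in this arrangement were found for 8.39% of the retained genes, and for J alone among the 4 members. With plain library totals in place of TMM, J overlapped and E4 did not. The day by cultivar term of J was -1.42 (log2, SE 0.63, unadjusted p = 0.0593, edgeR adjusted p = 0.232), and -1.76 (SE 0.66, adjusted p = 0.102) without the resistant control library of day 1. Without the resistant inducer library of day 1 it was -0.90 (SE 0.73, adjusted p = 0.620), and without the susceptible control of day 11 it was -0.82. DESeq2 gave -1.43 (SE 0.73, adjusted p = 0.203). At day 11 the resistant libraries averaged 2.58 ± 0.60 CPM of J, against 5.03 ± 2.15 CPM in the susceptible libraries (SD, n = 3 each), a difference of -0.96 (SE 0.40, unadjusted p = 0.0490, edgeR adjusted p = 0.192), or -0.41 without the susceptible control of day 11. None of these passed the threshold.

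E3, the phytochrome A3 receptor, varied less. It had 15.2, 15.0 and 14.4 CPM in the resistant libraries of day 11 with the inducer, with biotype 1 alone and in the control. It had 12.0 CPM with the inducer and 8.79 in the control in the resistant libraries of day 1. In the susceptible libraries of day 11 it had 12.4, 15.1 and 9.13 CPM in the same order of treatments, and at day 1 it had 11.4 with the inducer and 13.6 in the control. The resistant control of day 1 and the susceptible control of day 11 were the lowest, and the range of 1.73-fold was matched or exceeded by 79.4% of the retained genes. Values at day 11 lay above those at day 1 in the resistant cultivar, with averages of 14.9 ± 0.44 CPM (SD, n = 3) at day 11 and 10.4 ± 2.24 CPM (SD, n = 2) at day 1. The fitted difference was 0.44 (log2, SE 0.25, edgeR adjusted p = 0.725), or 0.27 without the resistant control of day 1, and groups that do not overlap were found in this comparison for 24.1% of genes. In the susceptible cultivar the day difference was -0.15 (SE 0.25, adjusted p = 0.771). The day by cultivar term was 0.60 (SE 0.33, unadjusted p = 0.117, adjusted p = 0.319), and it lay between 0.32 (without the susceptible control of day 1) and 0.88 (without the susceptible inducer of day 1) when 1 library was left out.

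E4, the phytochrome A2 receptor, had 42.0, 54.7 and 43.9 CPM in the resistant libraries of day 11 with the inducer, with biotype 1 alone and in the control. It had 31.0 CPM with the inducer and 51.8 in the control in the resistant libraries of day 1. In the susceptible libraries of day 11 it had 44.3, 36.1 and 43.3 CPM in the same order of treatments, and at day 1 it had 62.0 with the inducer and 42.0 in the control. Both extremes were inducer libraries of day 1, the resistant the lowest and the susceptible the highest. The CPM range between them was 2.00-fold. On the log2(CPM + 0.5) scale the range was 0.99, which 62.0% of the retained genes matched or exceeded. The day by cultivar term was 0.52 (log2, SE 0.45, edgeR adjusted p = 0.514) with all libraries and 1.00 (SE 0.42, adjusted p = 0.129) without the resistant control library of day 1. It was 0.0934 without the resistant inducer and 0.0974 without the susceptible inducer library of day 1, so its size rests on the libraries of day 1. The cultivar difference was 0.18 (SE 0.28, adjusted p = 0.718) at day 11. At day 1 it was -0.34 (SE 0.35, adjusted p = 0.989), or -0.82 without the resistant control and 0.11 without the resistant inducer library.

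**Figure D2:**
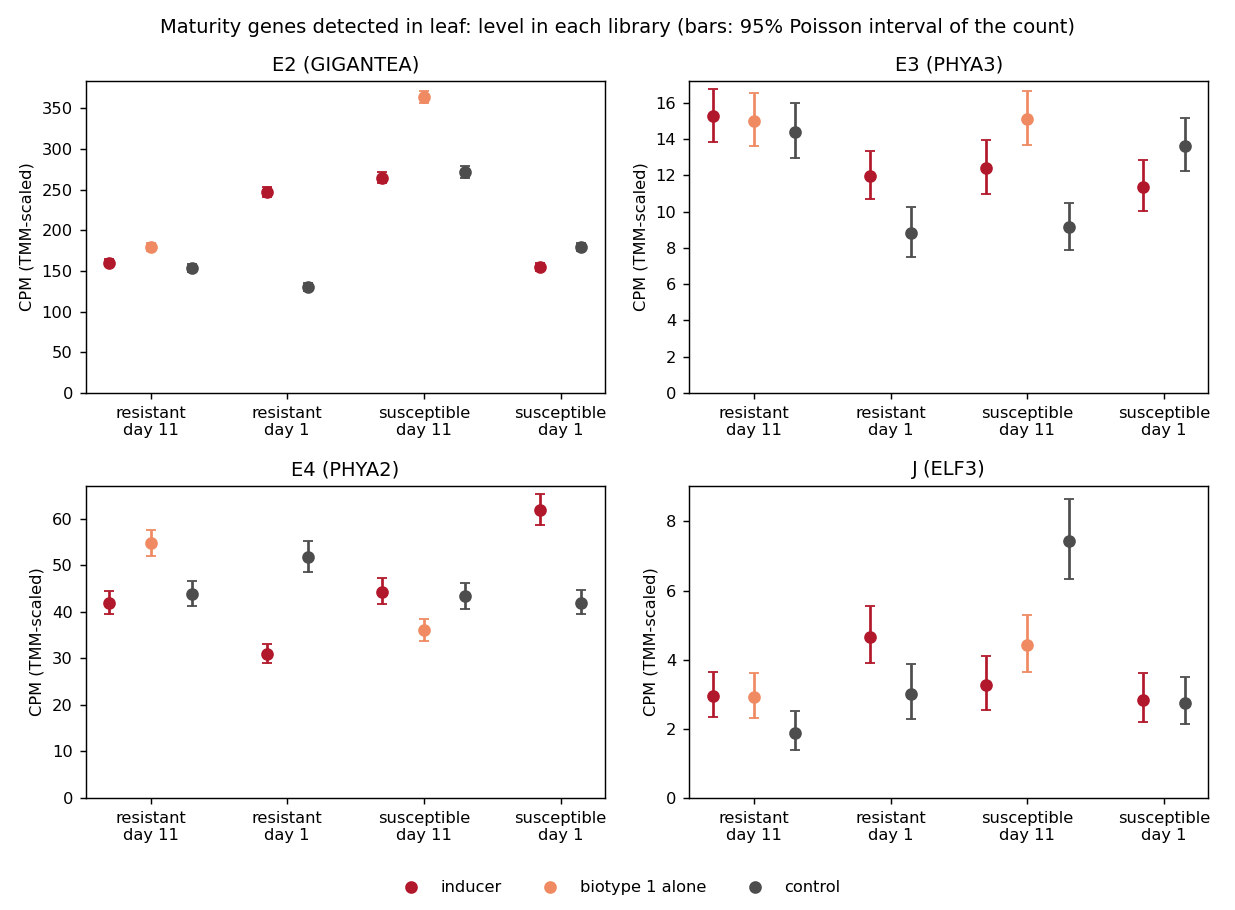
Level of E2, E3, E4 and J in each of the 10 libraries in CPM, with 1 point per library, coloured by treatment, and bars for the 95% Poisson interval of its count. E2 is at 247 CPM or more in the 3 susceptible day 11 libraries and the resistant inducer day 1 library only, and the highest J value is that of the susceptible control of day 11 (7.42 CPM).

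The effect of the aphids was tested over all 10 libraries in a model with treatment, cultivar and day as additive terms. In each of its 5 comparisons edgeR called 0 of the 4 members and 0 of all genes (0%), and DESeq2 called 0 members and between 4 and 107 genes. For the resistant against the susceptible cultivar DESeq2 gave no adjusted p for E3, E4 and J, so only E2 could have been called there. At an unadjusted p under 0.05 there were 0 members in any of the 5, against between 0.323% and 5.46% of all genes. The model takes its spread from 5 residual degrees of freedom, which hold the day by cultivar pattern as well as differences between pools, and the p-values measure only that spread.

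For the inducer against control, E2 averaged 207 ± 57.0 CPM in the inducer libraries and 184 ± 61.8 CPM in the controls (SD, n = 4 each). The fitted difference was 0.24 (log2, SE 0.32, edgeR adjusted p = 0.949). That of E3 was 0.14 (SE 0.21, adjusted p = 0.957), or 0.00444 without the susceptible control of day 11 and 0.38 without that of day 1. E4 averaged 44.8 ± 12.8 CPM with the inducer and 45.3 ± 4.43 CPM in the controls, a difference of -0.02 (SE 0.26, adjusted p = 0.995). J averaged 3.43 ± 0.85 CPM with the inducer and 3.77 ± 2.48 CPM in the controls, a difference of -0.03 (SE 0.45, adjusted p = 0.996). For all 4 genes the groups overlapped, where 5.37% of all genes did not, and the SE was as large as the difference or larger, and the signs of the small E4 and J differences changed with plain library totals.

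For biotype 1 alone against control, E3 had 15.0 and 15.1 CPM in the libraries with biotype 1 alone, against 8.79 to 14.4 CPM in the controls. The groups did not overlap, as for 15.2% of the retained genes. The fitted difference of E3 was 0.32 (log2, SE 0.28, edgeR adjusted p = 1), or 0.0973 without the susceptible control of day 11. E2 had 179 and 364 CPM with biotype 1 alone and 131 to 271 CPM in the controls, a difference of 0.45 (SE 0.41, adjusted p = 1), which was 0.082 without the susceptible and 0.78 without the resistant library with biotype 1 alone. For the inducer against biotype 1 alone, the fitted differences were -0.21 (SE 0.42) for E2, -0.17 (SE 0.28) for E3, -0.08 (SE 0.34) for E4 and 0.03 (SE 0.59) for J, each with an edgeR adjusted p of 1. The groups overlapped for all 4 in this comparison, and did not for 7.01% of genes. Both of these comparisons rest on the 2 libraries with biotype 1 alone, which were sampled at day 11 only.

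For day 11 against day 1 across both cultivars, the fitted differences were 0.20 (log2, SE 0.32) for E2, 0.15 (SE 0.22) for E3, -0.10 (SE 0.26) for E4 and 0.12 (SE 0.45) for J, each with an edgeR adjusted p of 1. For the resistant against the susceptible cultivar across both days, E2 averaged 174 ± 44.2 CPM in the resistant libraries and 247 ± 83 CPM in the susceptible libraries (SD, n = 5 each). The difference was -0.46 (SE 0.29, unadjusted p = 0.147, edgeR adjusted p = 0.944). J gave -0.39 (SE 0.41, adjusted p = 0.944), E3 0.07 (SE 0.19, adjusted p = 0.956) and E4 -0.03 (SE 0.23, adjusted p = 0.988). The groups overlapped for all 4 members in both comparisons, and did not for 0.179% of genes between days and 0.165% between cultivars.

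**Figure D3:**
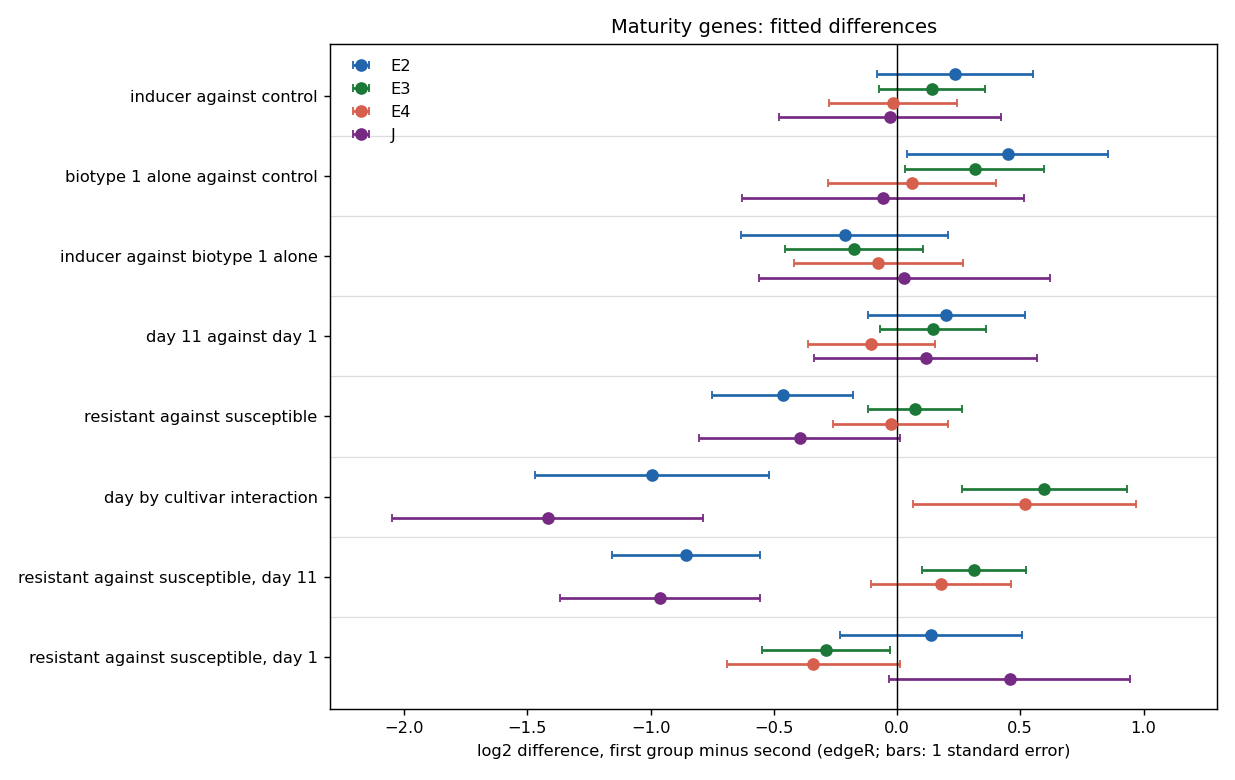
Fitted log2 differences of E2, E3, E4 and J in edgeR, first group minus second, with bars of 1 standard error, for the 5 comparisons of the additive model, the day by cultivar term and the cultivar difference at each day. E2 and J lie below 0 and E3 and E4 above 0 for the day by cultivar term, and 0 of the values shown passed the threshold.

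Differences between single libraries were also read for the 17 pairs that differ in 1 label, as the difference of log2(CPM + 0.5). These compare libraries and not conditions, and the pairs share libraries. Of the 68 values for 4 members, 4 reached 2-fold. J accounted for 3 of them. It had 3.25 CPM with the inducer and 7.42 CPM in the control in the susceptible cultivar at day 11 (-1.08, in a pair in which 10.2% of genes reached 2-fold). It had 7.42 CPM at day 11 and 2.76 CPM at day 1 in the susceptible control (1.28, 20.5% of genes). It had 1.89 CPM in the resistant control and 7.42 CPM in the susceptible control at day 11 (-1.73, 21.7% of genes). All 3 rest on the susceptible control library of day 11. The remaining value was that of E2 with biotype 1 alone at day 11, which had 179 CPM in the resistant and 364 CPM in the susceptible cultivar (-1.02, 18.1% of genes).

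In the other 13 pairs 0 members reached 2-fold. For the inducer against control, the share of all genes that did was 6.14% in the resistant cultivar at day 11, 28.1% in the resistant at day 1 and 7.01% in the susceptible at day 1. For biotype 1 alone against control it was 3.82% in the resistant and 8.14% in the susceptible cultivar, and for the inducer against biotype 1 alone 3.46% and 8.04% in the same order. For day 11 against day 1 it was 5.8% in the resistant control, 19.1% in the resistant inducer and 15.6% in the susceptible inducer libraries. For the resistant against the susceptible cultivar it was 16.5% with the inducer at day 11, 22.8% with the inducer at day 1 and 9.57% in the control at day 1. E4 was closest to 2-fold among these, with 31.0 CPM in the resistant and 62.0 CPM in the susceptible inducer library of day 1 (-0.99).

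With plain library totals 9 values reached 2-fold. The added 5 all involved the resistant libraries of day 1, where the median of all genes for the inducer against control was 0.53 (log2) with plain totals and 0.04 with TMM. E2 had 247 CPM with the inducer and 131 CPM in the control in that pair, a difference of 0.92 with TMM and 1.49 with plain totals, in a pair in which 28.1% of all genes reached 2-fold with TMM. E3 and E4 reached 2-fold in 0 of the 17 pairs with TMM.

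**Figure D4:**
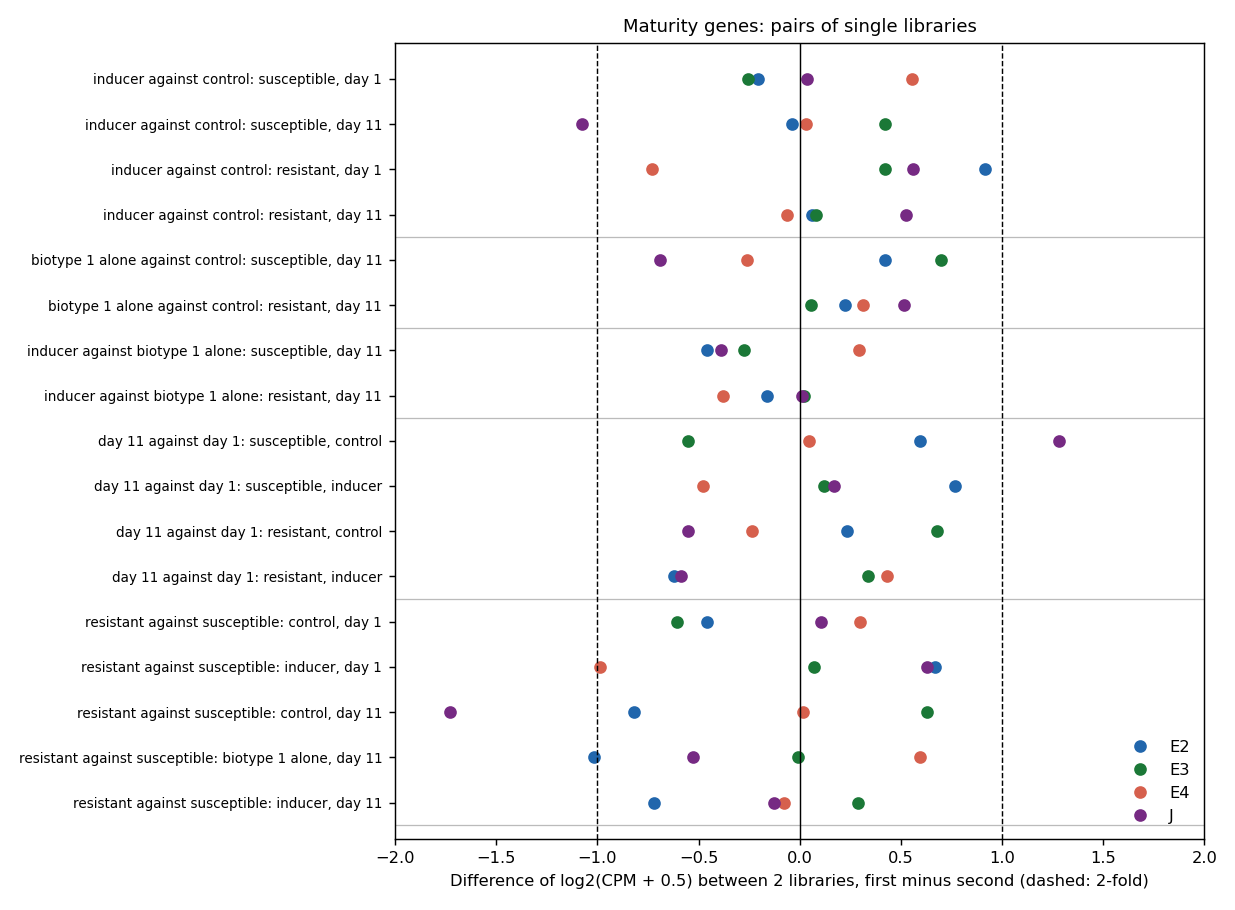
Difference of log2(CPM + 0.5) between 2 single libraries, first minus second, for E2, E3, E4 and J in the 17 pairs that differ in 1 label. Points outside the dashed lines at 2-fold are J in 3 pairs that hold the susceptible control of day 11, and E2 in the resistant against the susceptible cultivar with biotype 1 alone (-1.02).

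The genes whose pattern over the 10 libraries was most like that of a member were sought among the 22024 or 22025 other genes that averaged 5 CPM or more, by Pearson's r of log2(CPM + 0.5). For E2 they were Glyma.09G215700 (r = 0.988, 28.9 to 49.3 CPM) and Glyma.12G209600 (r = 0.987), and 971 genes (4.41%) had r over 0.9. For E3 they were Glyma.13G059200 (r = 0.979) and Glyma.12G235000 (r = 0.963), and 77 genes had r over 0.9. For E4 they were Glyma.06G245100 (r = 0.963) and Glyma.03G000100 (r = 0.960), with 116 genes over 0.9, and for J Glyma.06G129300 (r = 0.950) and Glyma.06G119400 (r = 0.948), with 75 genes over 0.9. More genes thus had r over 0.9 with E2 than with the other 3. E2 also had the most counts, 2479 to 9636 per library against 47 to 161 for J. Counting error lowers r more where counts are few, so these numbers do not compare how widely each pattern is shared. These r are descriptions over 10 libraries of like depth, and the sources used here pair no names with these identifiers.

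A list of 31 further identifiers was written from memory as genes of photoperiodic flowering (phytochromes, clock genes, florigen genes and their targets). As no source used here pairs them with names, they are given only as counts. Of the 30 that were found, 25 were retained, and edgeR called 0 higher and 0 lower in the day by cultivar term and in each of the other 9 comparisons. At an unadjusted p under 0.05 there were 9 of the 25 in the term, against 23.3% of all genes, of which 0.801% were called. For the resistant against the susceptible cultivar at day 11 there were 12 of the 25, against 25.8% of all genes. At day 1 there was 1 of the 25, against 4.18%. Between days there were 7 of the 25 in the susceptible cultivar, against 15.6%, and 3 in the resistant cultivar, against 7.46%. The median difference was -0.73 (log2) over the list and -0.01 over all genes in the term, and -0.50 and -0.01 between cultivars at day 11. In the 5 comparisons of the additive model the count was 0 of 25. The list was chosen with earlier results of these data known and was not tested as a set. These counts and medians therefore do not establish a shift of flowering genes.

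Reads of duplicated genes limit the values of single members. Estimated counts were fractional in 10 of 10 libraries for E2 and E4, in 7 for E3 and in 1 for J. The RefSeq table lists a further GIGANTEA on chromosome 20, PHYA on chromosome 10 and ELF3B on chromosome 14, and how many reads were divided with them was not tested. Levels were not compared between members, since no transcript lengths were used.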

How the data were processed

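Leaf RNA of 10 conditions was sequenced, with 1 library pooled from 3 replicates per condition. The authors trimmed reads with Trimmomatic 0.36, checked them with FastQC 0.11.3 and MultiQC 1.3 and quantified them with Salmon 0.9.1 against the primary transcript of each soybean gene from Phytozome, per the labels and the study's methods, and deposited estimated counts per gene, not normalized. These counts were rounded to whole numbers for testing. Of 55983 genes, the 37468 that exceeded 0.5 CPM in any library were retained.

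In R 4.3.3, edgeR 4.0.16 fitted TMM-scaled quasi-likelihood models to all 10 libraries, with cultivar, treatment and day as terms, and for comparisons within a day or cultivar also a day by cultivar term, with Benjamini-Hochberg adjustment over all retained genes and a threshold of 0.05. The fits were tested on simulated data. The simulated counts had less spread than these data, so that check cannot show which differences the fits would miss here. With 1 pooled library per condition, p-values measure only the residual spread of the model. DESeq2 1.42.0, plain library totals, other filters, a pseudocount of 0.1 CPM and leaving out each library were alternatives. Figures were drawn with matplotlib 3.10.9.

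The text names every member and, for each retained member, the 2 genes with the highest r. Members, lists and tests were chosen with earlier results of these data known, and the comparisons within a day or cultivar were added after seeing the data. Since 0 identifiers matched the RefSeq gene table, leaf markers were not checked and the list of flowering genes was left unnamed.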

Additional observations from a re-analysis of the deposited data

Results flagged for a closer look

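The difference of inducer and control had opposite signs in the labelled cultivars for E2 and E4 at both days. For E2, on the log2(CPM + 0.5) scale, it was 0.92 at day 1 and 0.0628 at day 11 in the resistant cultivar, against -0.21 at day 1 and -0.0362 at day 11 in the susceptible cultivar. For E4 it was -0.73 at day 1 and -0.0636 at day 11 in the resistant cultivar, against 0.56 at day 1 and 0.0326 at day 11 in the susceptible cultivar. Each value is a difference of 2 single libraries, and the difference between the cultivars was not tested. At day 11 the Poisson intervals of the inducer and control libraries overlapped for both genes in both cultivars, so these signs are within counting error. The share of all genes with opposite signs was not worked out. With plain library totals the sign of E2 in the susceptible cultivar at day 11 and that of E4 in the resistant cultivar at day 11 changed. Both cultivars then had the same sign at day 11 for each of these genes.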

How the results depend on the processing

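With plain library totals the inducer minus control difference was 0.11 for E4 and 0.17 for J, biotype 1 alone minus control was 0.18 for J, inducer minus biotype 1 alone was -0.0132 for J, and resistant minus susceptible was 0.0357 for E4, each of the opposite sign to TMM, and 9 values of single library pairs passed 2-fold. With the day by cultivar term added, J gave 0.00638 for the inducer and 0.00402 for biotype 1 alone, each minus control. DESeq2 called 1 member (E2) between cultivars at day 11, with 5365 of 37468 genes. Leaving out each library in turn, edgeR called 0 to 1 members in the day by cultivar term and 0 to 1 between cultivars at day 11, each time E2, in fits that called 21.7% of all genes in the term and 15.5% or 15.7% between cultivars. Over the libraries left out, E2 gave -0.10 to 0.43 for inducer minus control, -0.54 to 0.16 for inducer minus biotype 1 alone and -0.00318 to 0.55 for day 11 minus day 1. E3 gave -0.0484 to 0.24 for resistant minus susceptible, 0.00444 to 0.38 for inducer minus control and 0.0973 to 0.51 for biotype 1 alone minus control. E4 gave -0.27 to 0.21 for inducer minus control, -0.35 to 0.43 for biotype 1 alone minus control, -0.45 to 0.34 for inducer minus biotype 1 alone, -0.31 to 0.16 for day, -0.17 to 0.17 for cultivar and -0.00588 to 0.29 for cultivar at day 11. J gave -0.37 to 0.51, -0.41 to 0.81 and -0.30 to 0.27 for the same 3 treatment comparisons and -0.40 to 0.48 for day. E2 stayed below 0 in the day by cultivar term (-1.45 to -0.46) and between cultivars at day 11 (-0.96 to -0.75), as did J (-1.76 to -0.82 and -1.30 to -0.41), and the term lay between 0.32 and 0.88 for E3 and between 0.0934 and 1.00 for E4. The cause of these changes was not tested. Depth limits E1, E1La and E1Lb, at most 7.552 counts in any library, and with 1 pooled library per condition no difference has a replicate check.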
